A study of Mus musculus with 24 samples.

Results

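*Has2*, *Vcan*, *Hapln1*, *Fn1*, *Tnc*, *Postn*, *Col1a1*, *Col1a2*, *Col3a1* and *Lum* encode proteins that make or form the cardiac jelly and the fibrous matrix of the outflow tract. These 10 genes, of 19938 genes measured, were chosen by name, and each was read by 1 probe set that carried no other gene symbol. Their levels were compared between mutant and control arrays of the anterior heart field (AHF), the pharyngeal mesoderm that adds myocardium to the outflow tract and right ventricle.

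Cardiac jelly is the hyaluronan-rich gel that separates myocardium from endocardium in the early heart tube. Hyaluronan chains are extruded by the synthase Has2, carry the proteoglycan versican (*Vcan*) and are held to it by link protein (*Hapln1*), and mice without *Has2* or *Vcan* do not form endocardial cushions. The swelling gel is later invaded by mesenchyme and replaced by a fibrous matrix, in which fibronectin (*Fn1*), tenascin-C (*Tnc*), periostin (*Postn*), the fibrillar collagens and lumican (*Lum*) accumulate as cushions become valves and septa.

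The series comprised 24 Affymetrix mouse Gene ST arrays from 3 experiments, *Tbx1 LOF*, *β-cat LOF* and rescue, with 4 mutant and 4 control arrays in each. *Tbx1 LOF* embryos were Mef2c-AHF-Cre/+;Tbx1 f/- or f/f, *β-cat LOF* embryos were Mef2c-AHF-Cre/+;β-catenin f/f, and rescue embryos had the *Tbx1 LOF* genotype plus 1 floxed β-catenin allele. In the methods the controls lack Cre and carry Tbx1 f/+, β-catenin f/+ or both, whereas the labels name wild type and Mef2c-AHF-Cre/+;Tbx1 f/+ littermates, so it is uncertain which genotype each control pool had. The *Tbx1* lines were in Swiss Webster and the floxed β-catenin line in a mixed C57Bl/6 and Swiss Webster background. For rescue crosses the methods name Tbx1 f/f;β-catenin f/f females, from an inbred line of mixed C57Bl/6 and Swiss Webster origin. Embryos were at E9.5, at a stage of 19 to 21 somite pairs, and each array was hybridized from 100 ng of RNA from a pool of several embryos' dissected pharyngeal arches 2 to 6 without the heart tube. Mef2c-AHF-Cre recombines in the AHF lineage, which also gives rise to some endothelium. Neural crest, endoderm and ectoderm in the dissected tissue lie outside that lineage, though all cells of Tbx1 f/- embryos carried 1 null allele. In such mixed tissue, fewer cells of a type cannot be told apart from less RNA per cell. Values are log2 intensities, and a difference of 1 is a change of 1 doubling. Differences are mutant minus control, with limma's standard error (SE) from 1 fit over all arrays, and a gene was called at a Benjamini-Hochberg adjusted p under 0.05 over all 19938 genes.

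Upstream sequence from RefSeq (GRCm38.p6) was matched for 6 of the 10 genes, *Vcan*, *Hapln1*, *Tnc*, *Postn*, *Col1a2* and *Col3a1*. The 250 bases before an annotated start are shown for *Postn*, whose level varied most among arrays, and for *Col1a2*, *Col3a1* and *Vcan*, whose levels deviated together. Capitals mark every match, on either strand, to the TATA box TATAAA, the CCAAT box CCAAT, the T-box core AGGTGT or the TCF/LEF core TCAAAG.
Postn, second start (chr3:54360857-54361106, plus strand): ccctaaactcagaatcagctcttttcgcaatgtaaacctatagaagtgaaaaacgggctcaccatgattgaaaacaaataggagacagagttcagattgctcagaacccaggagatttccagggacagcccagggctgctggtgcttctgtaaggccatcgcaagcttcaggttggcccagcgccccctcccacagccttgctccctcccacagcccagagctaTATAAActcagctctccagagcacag
Col1a2 (chr6:4505368-4505617, plus strand): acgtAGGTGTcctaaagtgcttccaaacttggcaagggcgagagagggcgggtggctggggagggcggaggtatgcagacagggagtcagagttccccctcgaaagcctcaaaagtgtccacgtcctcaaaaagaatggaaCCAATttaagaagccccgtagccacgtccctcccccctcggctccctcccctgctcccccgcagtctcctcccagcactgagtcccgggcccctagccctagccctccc
Col3a1 (chr1:45311288-45311537, plus strand): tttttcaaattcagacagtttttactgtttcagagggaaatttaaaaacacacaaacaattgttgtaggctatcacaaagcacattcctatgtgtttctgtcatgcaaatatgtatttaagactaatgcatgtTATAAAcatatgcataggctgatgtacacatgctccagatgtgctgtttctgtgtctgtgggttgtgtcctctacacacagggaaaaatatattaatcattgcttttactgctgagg
Vcan, a start inside the gene's annotated span (chr13:89742513-89742762, minus strand): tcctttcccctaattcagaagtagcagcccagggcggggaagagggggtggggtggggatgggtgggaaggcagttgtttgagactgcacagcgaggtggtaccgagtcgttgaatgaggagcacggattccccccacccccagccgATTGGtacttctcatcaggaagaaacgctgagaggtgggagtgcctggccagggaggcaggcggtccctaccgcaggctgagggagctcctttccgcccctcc
The second start of *Postn* had TATAAA from 26 to 21 bases before it, and the windows of *Col3a1* and *Tnc* held the same letters farther upstream. *Col1a2* held CCAAT and AGGTGT, *Vcan* held ATTGG, the CCAAT box of the other strand, and *Hapln1* and the first start of *Postn* held none of the 4 motifs. No match overlapped another. TATAAA occurred in 12.4%, CCAAT in 33.8%, AGGTGT in 11.8% and TCAAAG in 13.8% of 32851 windows of this length, so single matches are common.

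The median log2 intensity of an array was 7.998 at the lowest and 8.14 at the highest. *Tbx1*, the deleted T-box gene, fell in *Tbx1 LOF* arrays, which averaged 11.27 ± 0.20, against 11.92 ± 0.10 in their controls (SD, n = 4 each; adjusted p = 0.00626). This call was lost with the array number as a replicate block (−0.64; adjusted p = 0.122), in a fit of the 8 *Tbx1 LOF* arrays alone (adjusted p = 0.185), and without array 1 of the mutants or array 3 or 4 of the controls (adjusted p between 0.0504 and 0.0534). *Tbx1* averaged 11.47 ± 0.05 in rescue arrays and 11.78 ± 0.16 in their controls (SD, n = 4 each), which did not overlap but did not pass the test (adjusted p = 0.9999). *Ctnnb1*, which encodes β-catenin, averaged 13.18 ± 0.09 in *β-cat LOF* arrays and 13.20 ± 0.02 in controls (SD, n = 4 each). Whether its probes fall in the floxed exons is unknown here, so this level does not check those labels. The mean level of 9 AHF markers lay between 10.06 and 10.46 on all arrays. Heart tube markers were also well above the array medians, although the heart tube was not dissected. Array 2 of the *β-cat LOF* controls stood apart, with a mean over 14 heart tube markers of 12.52, against 10.68 to 11.21 in the other 3 controls. Arrays numbered 1 and 2 also differed from arrays numbered 3 and 4 over many genes, as described for the matrix genes further on. Nothing in the labels says whether pools came from separate litters, so the p-values measure the spread between these arrays.

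No matrix gene passed the test in any comparison of mutant with control. The count was 0 of 10 in *Tbx1 LOF*, where limma called 0.0301% of all genes in either direction, 0 of 10 in *β-cat LOF* and 0 of 10 in rescue, where it called 0% of genes in each. Before adjustment, at a p under 0.05, 1 of the 10 passed in *Tbx1 LOF* (*Col1a1*, higher), where 4.12% of all genes did in either direction, and 0 in *β-cat LOF* (5.72% of all genes) or rescue (1.27%). In none of the 10 genes did the 4 mutant arrays lie wholly above or below the 4 controls, whereas such a separation occurred upward in 1.32%, 2.06% and 0.737% of all genes and downward in 0.973%, 0.787% and 2.24% in *Tbx1 LOF*, *β-cat LOF* and rescue. The median difference of the 10 genes was 0.05 in *Tbx1 LOF*, −0.13 in *β-cat LOF* and −0.01 in rescue, beside −0.01, 0.01 and −0.02 over all genes. Positive differences were found in 7, 2 and 4 of the 10 genes, and in 41.3%, 57.4% and 39.1% of all genes.

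**Figure D1:**
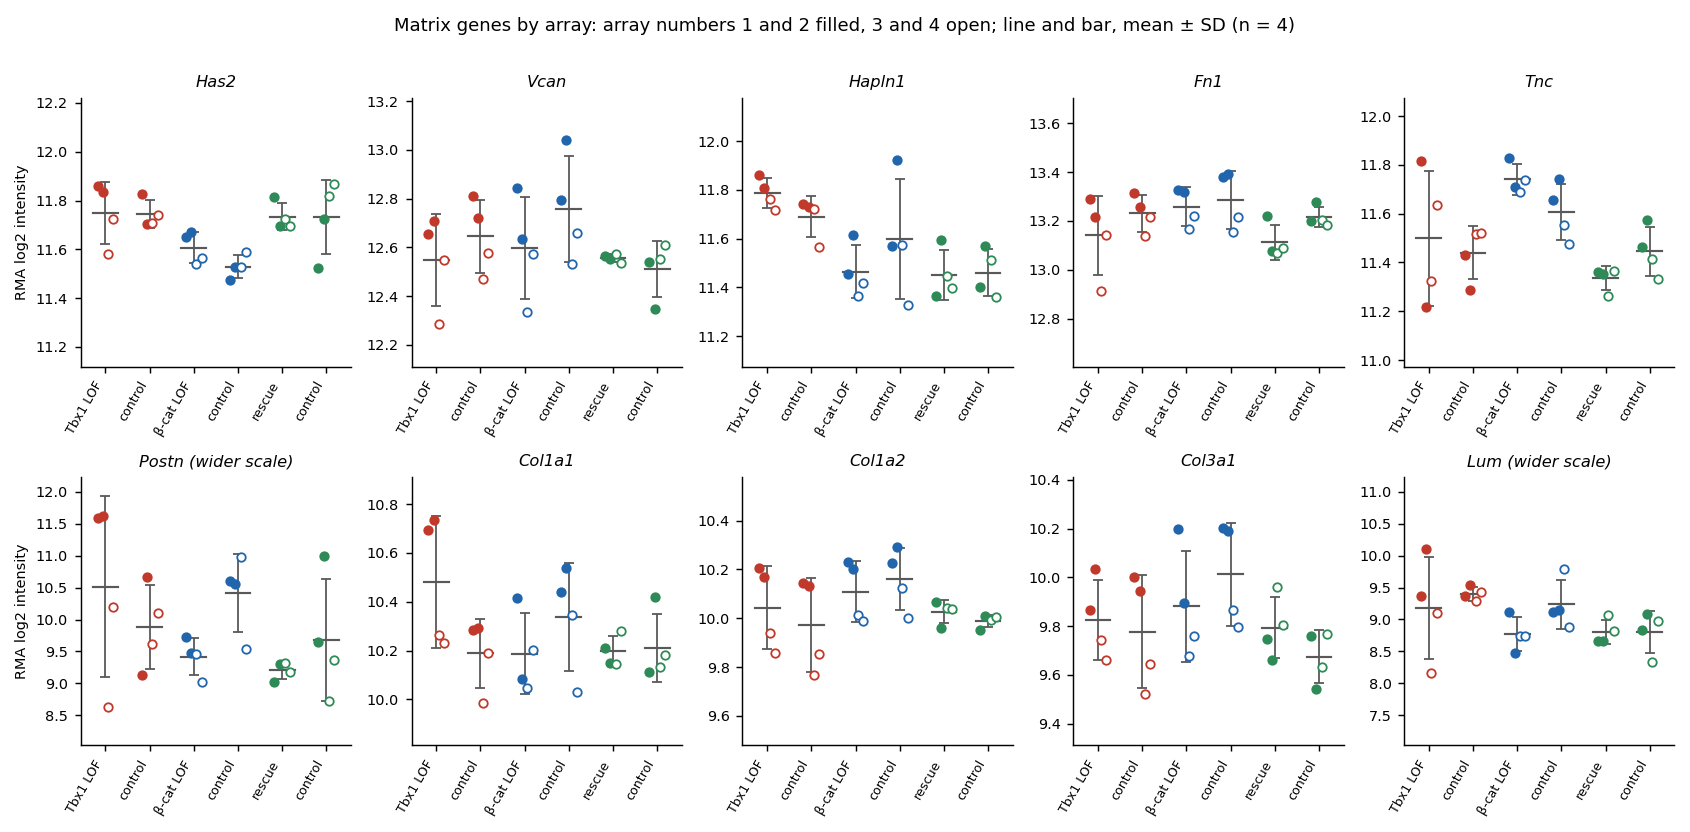
Log2 intensity of each matrix gene on every array, with filled points for array numbers 1 and 2, open points for 3 and 4, and the mean ± SD of 4 arrays; each mutant group stands left of its control, and the axes of *Postn* and *Lum* span a wider range than the others. The 4 *Tbx1 LOF* arrays of *Postn* run between 8.64 and 11.63, and mutant and control arrays overlap in all panels.

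*Has2* (chr15:56665627-56694546 of GRCm38.p6, as for the genes that follow), the main hyaluronan synthase of the embryonic heart, was the steadiest of the 10 genes. Its arrays lay between 11.58 and 11.86 in *Tbx1 LOF*, against 11.70 to 11.83 in controls, a difference of 0.01 (SE 0.07). In *β-cat LOF* they lay between 11.54 and 11.67, against 11.47 to 11.59 in controls, and in rescue between 11.70 and 11.82, against 11.53 to 11.87 in controls. The 95% intervals of the 3 differences reached no farther than −0.14 and 0.22, so changes beyond about 1.16-fold lay outside them. The residual SD of *Has2* was 0.09, at the 31.0th percentile of all genes.

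*Vcan* (chr13:89655309-89743027), the large chondroitin sulfate proteoglycan that binds hyaluronan, had 12.66, 12.71, 12.28 and 12.55 on the 4 *Tbx1 LOF* arrays, against 12.81, 12.72, 12.47 and 12.58 on controls. The *β-cat LOF* arrays had 12.84, 12.63, 12.34 and 12.57, against 12.79, 13.04, 12.53 and 12.66 in controls. In both experiments arrays 1 and 2 were higher than arrays 3 and 4 in mutants and controls alike, and the genotypes overlapped. The differences were −0.10 (SE 0.11; adjusted p = 0.9998) and −0.16 (SE 0.11; adjusted p = 0.871). In rescue the mutant arrays lay close together, from 12.53 to 12.57, inside the 12.35 to 12.61 of their controls (0.04, SE 0.11). Without array 2 of the *β-cat LOF* controls, the difference in *β-cat LOF* was −0.06.

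*Hapln1* (chr13:89540529-89611832), the link protein that locks versican onto hyaluronan, lies next to *Vcan* on chromosome 13, with 43476 bases and no coding gene between them. It had 11.86, 11.81, 11.76 and 11.72 on *Tbx1 LOF* arrays, against 11.74, 11.73, 11.72 and 11.56 on controls. Mutant arrays 1, 2 and 3 were above every control and array 4 was within their range. The difference was 0.10 (SE 0.09; adjusted p = 0.9998). In *β-cat LOF* it had 11.46, 11.62, 11.36 and 11.42, against 11.57, 11.92, 11.57 and 11.33 in controls (−0.13, SE 0.09; adjusted p = 0.871). The high control value came from array 2, the array with the highest heart tube markers, and without it the difference was −0.03. Rescue arrays lay between 11.36 and 11.60, against 11.36 to 11.57 in controls. Although the genes are neighbours, the deviations of *Hapln1* and *Vcan* from their group means correlated only by 0.41 over 24 arrays.

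*Fn1* (chr1:71585473-71653280), the glycoprotein that integrins bind first when a matrix is assembled, lay between 12.91 and 13.29 in *Tbx1 LOF*, against 13.14 to 13.31 in controls, and its difference was −0.09 (SE 0.07; adjusted p = 0.9998). In *β-cat LOF* the arrays lay between 13.17 and 13.33, against 13.16 to 13.39 in controls (−0.03, SE 0.07). Rescue arrays had 13.22, 13.08, 13.07 and 13.09, against 13.20, 13.28, 13.20 and 13.18 in controls. Rescue arrays 2, 3 and 4 were below every control, and array 1 was within the control range (−0.10, SE 0.07; adjusted p = 0.9999). *Tnc* (chr4:63959785-64047015), a matrix glycoprotein that loosens cell adhesion where tissues remodel, spread widely in *Tbx1 LOF*, with 11.82, 11.22, 11.32 and 11.64, against 11.43, 11.29, 11.52 and 11.52 in controls. In *β-cat LOF* it was between 11.69 and 11.83, against 11.48 to 11.74 in controls (0.13, SE 0.09; adjusted p = 0.871), one of 2 genes with a positive difference there beside *Has2*. In rescue it was between 11.26 and 11.36, against 11.33 to 11.57 in controls (−0.11, SE 0.09).

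*Postn* (chr3:54359267-54391041), a matricellular protein of cushion and valve mesenchyme that promotes collagen assembly, showed the greatest differences and the greatest spread. The *Tbx1 LOF* arrays had 11.59, 11.63, 8.64 and 10.19, against 9.14, 10.67, 9.61 and 10.10 in controls. Arrays 1 and 2 of the mutant exceeded all controls and array 3 was below all of them, so the mean of 10.51 ± 1.42 in mutants, against 9.88 ± 0.66 in controls (SD, n = 4 each), covered arrays on both sides of the controls. The difference was 0.63 (SE 0.50, 95% interval −0.41 to 1.67; adjusted p = 0.9998), and it was 1.25 without mutant array 3 and 0.26 without mutant array 2. Within arrays 1 and 2 it was 1.70, and within arrays 3 and 4 it was −0.44. In *β-cat LOF* the 4 arrays had 9.72, 9.48, 9.46 and 9.02, against 10.60, 10.55, 10.98 and 9.54 in controls. Control arrays 1, 2 and 3 were above every mutant array, and control array 4 lay within the mutant range. The difference of −0.999 (SE 0.50, 95% interval −2.04 to 0.05; adjusted p = 0.854) corresponded to a level 0.501 times that of controls, and it was −0.98 within arrays 1 and 2 and −1.02 within arrays 3 and 4. Rescue arrays had 9.02, 9.30, 9.32 and 9.18, against 9.64, 11.0002, 8.72 and 9.37 in controls. The difference of −0.48 (SE 0.50) rested on control array 2 and was −0.04 without it.

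*Lum* (chr10:97565501-97572703), a small leucine-rich proteoglycan that sets the spacing of collagen fibrils, had 9.37, 10.10, 8.16 and 9.09 on *Tbx1 LOF* arrays, against 9.36, 9.54, 9.28 and 9.43 on controls. The mutant arrays thus ran from above to below the narrow control range, and the difference of −0.22 (SE 0.26; adjusted p = 0.9998) became 0.12 without mutant array 3. The *β-cat LOF* arrays had 9.12, 8.48, 8.75 and 8.74, against 9.11, 9.15, 9.79 and 8.89 in controls. Mutant arrays 2, 3 and 4 were below every control (−0.46, SE 0.26; adjusted p = 0.855), and the difference was −0.28 without control array 3. In rescue the arrays lay between 8.67 and 9.06, against 8.33 to 9.09 in controls (−0.001, SE 0.26). *Lum* lies on chromosome 10 between *Dcn*, which encodes decorin, and *Kera*, which encodes keratocan, both of the same proteoglycan family. *Dcn*, named here after its values were seen, averaged 9.48 in *β-cat LOF* and 9.96 in controls, without overlap of the arrays (−0.48, SE 0.20; adjusted p = 0.851). Such a downward separation occurred in 0.787% of all genes there. Within groups *Dcn* deviated with *Lum* (r = 0.69 over 24 arrays), whereas *Kera* ran against it (−0.56).

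The fibrillar collagens are the tension-bearing fibres of the matrix, and *Col1a1* (chr11:94936224-94953042) and *Col1a2* (chr6:4505618-4541543) encode the chains of type I collagen. *Col1a1* had 10.70, 10.74, 10.27 and 10.23 on *Tbx1 LOF* arrays, against 10.28, 10.29, 9.99 and 10.19 on controls. Arrays 1 and 2 of the mutant were above all controls, and arrays 3 and 4 lay within the control range. The difference of 0.29 (SE 0.12, 95% interval 0.05 to 0.54) was the only one to pass an unadjusted p of 0.05, and it did not pass adjustment (adjusted p = 0.978). It was 0.43 within arrays 1 and 2 and 0.16 within arrays 3 and 4. In *β-cat LOF* the arrays lay between 10.05 and 10.41, against 10.03 to 10.54 in controls (−0.15, SE 0.12), and in rescue between 10.15 and 10.28, against 10.11 to 10.42 in controls (−0.02, SE 0.12).

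*Col1a2*, the partner chain, had smaller differences, 0.07 (SE 0.09) in *Tbx1 LOF*, −0.05 in *β-cat LOF* and 0.04 in rescue. The *Tbx1 LOF* arrays had 10.20, 10.17, 9.94 and 9.86, against 10.14, 10.13, 9.77 and 9.85 in controls, so mutant and control arrays of the same number were nearly level. *Col3a1* (chr1:45311538-45349706), the type III collagen of distensible tissues, lies beside *Col5a2*. It lay between 9.66 and 10.04 in *Tbx1 LOF*, against 9.52 to 10.0009 in controls (0.05, SE 0.12), and between 9.68 and 10.20 in *β-cat LOF*, against 9.80 to 10.20 in controls (−0.13, SE 0.12). In rescue it lay between 9.66 and 9.96, against 9.54 to 9.77 in controls (0.12, SE 0.12; adjusted p = 0.9999).

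**Figure D2:**
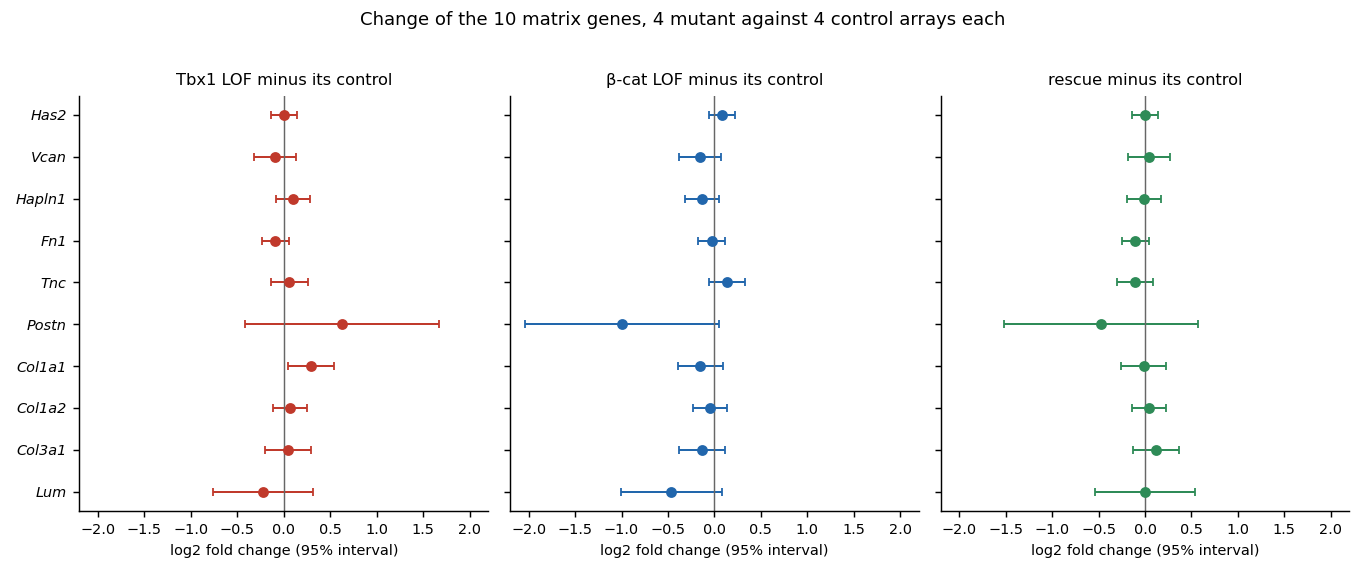
Log2 difference of each matrix gene, mutant minus its own control, with limma's 95% interval, for *Tbx1 LOF*, *β-cat LOF* and rescue (4 against 4 arrays each). Only the interval of *Col1a1* in *Tbx1 LOF*, 0.05 to 0.54, leaves out 0, and *Postn* has the widest intervals in all 3 panels.

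The study asked how *Tbx1* and β-catenin act on the same tissue, so the change in *Tbx1 LOF* was also set directly against that in *β-cat LOF*. Of the 10 genes none passed, where 0.0502% of all genes did. At an unadjusted p under 0.05 the change was higher in *Tbx1 LOF* for 2 genes, *Col1a1* and *Postn*, and lower for none, where 6.44% of all genes passed in either direction. The change of *Col1a1* was greater by 0.45 (SE 0.17; adjusted p = 0.493) and that of *Postn* by 1.63 (SE 0.71; adjusted p = 0.678). *Hapln1* followed with 0.23 (SE 0.13; adjusted p = 0.839), or 0.12 without array 2 of the *β-cat LOF* controls. Against rescue, the change in *Tbx1 LOF* differed for none of the 10 genes at either limit, where 0% of all genes passed after adjustment and 1.71% before it. *Postn* had the greatest difference there, 1.11 (SE 0.71, 95% interval −0.37 to 2.58), or 0.67 without array 2 of the rescue controls and 1.73 without array 3 of the *Tbx1 LOF* mutants.

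The genes differed in how far arrays of 1 group spread. The residual SD of *Postn* was 0.80 and that of *Lum* 0.41, at the 99.95th and 99.5th percentile of all genes, whose median was 0.112. The other 8 genes lay between 0.09 for *Has2* and 0.18 for *Col3a1*. A difference of *Postn* therefore needed to be several times that of *Has2* to reach the same p.

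Within groups, most pairs of matrix genes deviated together, less so once array numbers were taken out and not in rescue. Of the 45 pairs of genes, 43 had a positive correlation of their deviations from the group means over 24 arrays, with a median of 0.40. The share over pairs of all genes was not computed, so these counts do not set the matrix genes apart. Array numbers were taken out by subtracting, within each group, the mean of arrays 1 and 2 and that of arrays 3 and 4. Both arrays behind such a mean then deviate equally and oppositely, so fewer than 24 values are independent. With the array numbers taken out, 33 of the 45 were positive, with a median of 0.19. Over the 8 arrays of an experiment, 40 were positive in *Tbx1 LOF* (median 0.61), 39 in *β-cat LOF* (median 0.63) and 23 in rescue (median 0.05, lowest −0.89). These are descriptions of arrays that share hybridization, dissection and array number. The closest pairs were *Col1a2* and *Col3a1* (r = 0.84), *Postn* and *Lum* (0.81), *Vcan* and *Col3a1* (0.81) and *Col1a1* and *Col1a2* (0.79), whereas *Tnc* and *Col3a1* had −0.10, from −0.44 in *Tbx1 LOF*, 0.87 in *β-cat LOF* and −0.72 in rescue. *Lum* was, of all other genes, the one closest to *Postn*, ahead of *Prss35*, and *Lum* itself came closest to *Pcolce2* (0.86), whose product enhances procollagen processing. Other pairs ranked lower among all genes. For *Col1a2*, *Col3a1* ranked 386th and *Vcan* 1691st, with *Snx17* first (0.96), while *Col1a2* ranked 9th for *Col1a1* and 24th for *Col3a1*. The pairs parted once the array numbers were taken out. By that subtraction, *Postn* and *Lum* still had 0.73, while *Col1a2* and *Col3a1* had 0.23 and *Vcan* and *Col1a2* −0.17. Over the 8 arrays of each experiment, *Postn* and *Lum* had 0.88 in *Tbx1 LOF*, 0.71 in *β-cat LOF* and 0.73 in rescue, and *Col1a2* and *Col3a1* had 0.94, 0.90 and 0.19. Without the 2 arrays on which *Postn* lay farthest out, *Tbx1 LOF* array 3 and rescue control array 2, the correlation with *Lum* was 0.73. Over the rescue arrays the deviations of *Vcan*, which were small, ran against those of *Tnc* (−0.89), *Postn* (−0.86) and *Col1a1* (−0.85). With *Col1a1* it had 0.81 in *Tbx1 LOF* and 0.71 in the *β-cat LOF* experiment. Rescue control array 2 held the largest rescue deviations of *Vcan* (−0.17), *Postn* (1.32) and *Col1a1* (0.21). The rescue correlations of *Vcan* without that array were not computed.

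**Figure D3:**
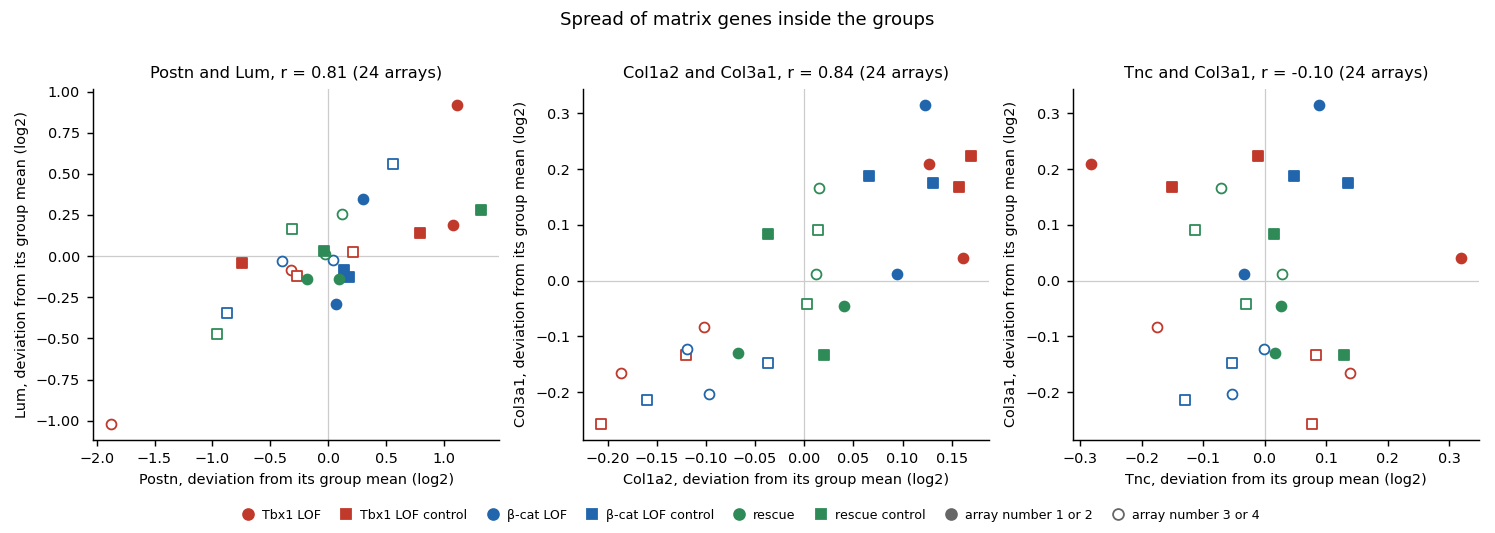
Deviation of 2 matrix genes from their group means on each of 24 arrays, with circles for mutants, squares for controls, and filled and open symbols for array numbers 1 or 2 and 3 or 4. *Postn* and *Lum* (r = 0.81) rise together across all experiments, *Col1a2* and *Col3a1* (0.84) part by array number in the *Tbx1 LOF* and *β-cat LOF* experiments, and *Tnc* and *Col3a1* (−0.10) run together in *β-cat LOF* only (0.87).

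More of the matrix genes passed the test by array number than by genotype, but these counts come from tests of unequal power. The array-number term over the 3 experiments used all arrays, whereas each genotype comparison set 4 mutant against 4 control arrays. Its SE was 0.04 for *Col1a2* and 0.26 for *Postn*, against 0.09 and 0.50 by genotype. Within 1 experiment, as given further on, the array-number test also set 4 arrays against 4. The difference of arrays 1 and 2 from arrays 3 and 4 over the 3 experiments was positive in all 10 genes, except that *Has2* had −0.0037 after a second quantile normalization. The test was passed upward by 5 of 10, where 11.2% of all genes passed upward and 6.57% downward. These were *Col1a2* (0.16, SE 0.04; adjusted p = 0.00723), *Fn1* (0.13, SE 0.03; adjusted p = 0.00785), *Col1a1* (0.20, SE 0.055; adjusted p = 0.0197), *Col3a1* (0.18, SE 0.06; adjusted p = 0.0346) and *Vcan* (0.16, SE 0.05; adjusted p = 0.0378). *Postn* had the greatest difference, 0.69 (SE 0.26; adjusted p = 0.0672), and *Has2* the smallest, 0.02. *Col1a2*, *Fn1* and *Col1a1* kept their calls without any single array. *Vcan* and *Col3a1* lost theirs when single arrays of the *Tbx1 LOF* and *β-cat LOF* experiments were left out, at adjusted p between 0.0506 and 0.0764, and *Postn* passed without array 1 of the *Tbx1 LOF* controls (0.81; adjusted p = 0.0338) or array 3 of the *β-cat LOF* controls (0.79; adjusted p = 0.0355). *Hapln1* (0.12, SE 0.04; adjusted p = 0.0599) passed without array 1 of the *β-cat LOF* controls, array 1 of the rescue mutants, or array 1 or 3 of the rescue controls, at adjusted p between 0.0321 and 0.0496. In the *Tbx1 LOF* experiment alone, 4 of the 10 passed upward (*Vcan*, *Col1a1*, *Col1a2* and *Col3a1*, by 0.25 to 0.34), where 18.3% of all genes passed in either direction. In *β-cat LOF* only *Col3a1* passed (0.34, SE 0.07; adjusted p = 0.0420), where 2.24% of all genes did, and in rescue 0 of 10 and 0% of all genes. The labels do not say what the array number stands for, while the methods state that the arrays were run in more than 1 batch. By the methods, clustering of the samples showed clear effects of batch, most of all in the *β-cat LOF* and *Tbx1 LOF* data. Whether the array number follows those batches was not tested. Mutant and control arrays are equally divided between these numbers, so the number is not confounded with genotype.

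**Figure D4:**
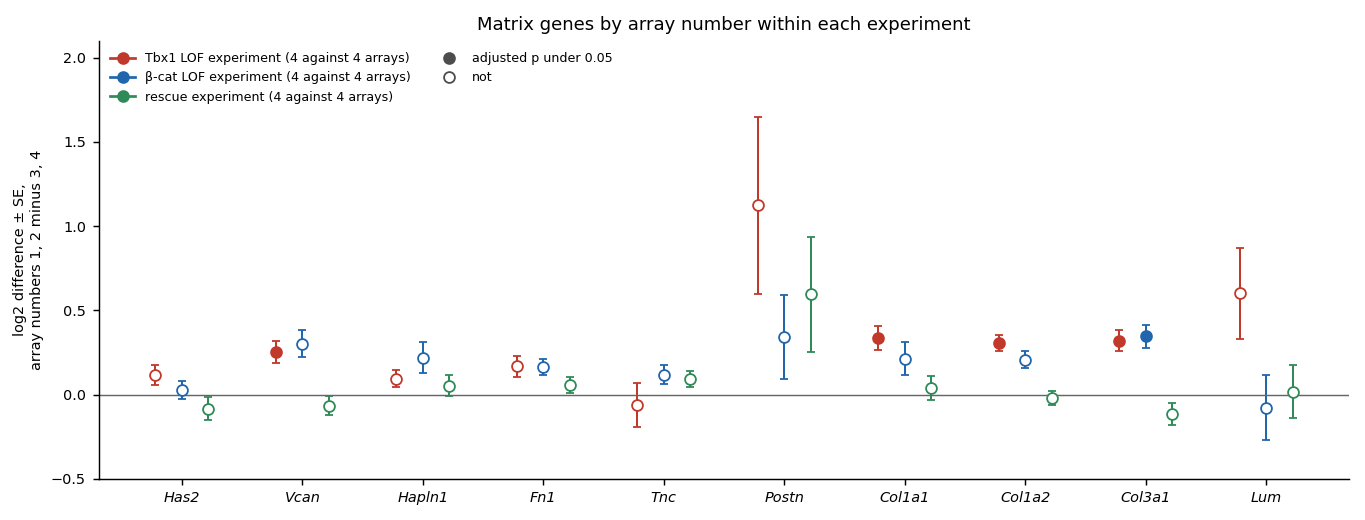
Difference of each matrix gene between array numbers 1 and 2 and array numbers 3 and 4 within an experiment, in log2 ± SE, over 4 against 4 arrays that hold mutants and controls equally; filled points have an adjusted p under 0.05. The type I and III collagens and *Vcan* sit between 0.21 and 0.34 in the *Tbx1 LOF* and *β-cat LOF* experiments and between −0.11 and 0.04 in rescue.

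The mean levels of some lists of tissue markers separated mutant from control arrays, and some varied with matrix genes from array to array. The mean of 14 heart tube myocardial markers ran from 10.74 to 11.03 in *Tbx1 LOF*, against 9.98 to 10.47 in controls, and from 10.11 to 10.57 in *β-cat LOF*, against 10.68 to 12.52 in controls, without overlap in either. The other separations were of the mean of 10 neural crest markers, which averaged 9.94 in *Tbx1 LOF* and 10.08 in controls (−0.13), of 9 arch mesenchyme markers, 10.69 in *Tbx1 LOF* and 10.59 in controls (0.10), and of 8 neural tube markers, 8.46 in *β-cat LOF* and 8.19 in controls (0.27). Of these markers, 1 of 10, 5 of 9 and 8 of 8 were higher in the mutants. The arch mesenchyme list was thus mixed, with a median difference of 0.03 and *Hand1* at 0.48 (SE 0.14). Neural crest and arch mesenchyme also make this matrix. The plasma protein and mesothelial means overlapped between genotypes in both experiments. The mean of 10 plasma protein markers of liver and gut ran from 7.76 to 8.61 in *Tbx1 LOF*, against 7.49 to 8.11 in controls, with all 10 markers higher, and from 7.42 to 7.76 in *β-cat LOF*, against 7.42 to 8.41 in controls, with all 10 lower. The mean of 8 proepicardial and mesothelial markers averaged 9.45 in *Tbx1 LOF* and 9.29 in controls, and 9.20 in *β-cat LOF* and 9.43 in controls. None of these markers passed the test in these comparisons. At the level of arrays, *Hapln1* deviated with the heart tube markers (r = 0.72 over 24 arrays), but by 0.33 without arrays 2 and 4 of the *β-cat LOF* controls. *Col1a2* deviated with the mesothelial markers (0.73), though by −0.64 over the 8 rescue arrays, and *Vcan* with the plasma proteins (0.70). *Vcan* ran most clearly against the mean of 9 AHF markers, a list that holds *Tbx1* itself, with −0.83 in *Tbx1 LOF*, −0.91 in *β-cat LOF* and −0.93 in rescue over 8 arrays each, and −0.73 over all arrays with the array numbers taken out. *Col3a1* did so too, with −0.80, −0.88 and −0.67. *Tnc* ran against the mean of 10 somite and sclerotome markers (−0.72 over all arrays, −0.63 without arrays 1 of *Tbx1 LOF* and 4 of its controls), with −0.84 in *Tbx1 LOF* and −0.66 in rescue but only −0.14 in *β-cat LOF*. That mean was 9.13 in *Tbx1 LOF* and 9.42 in controls, with 0 of the 10 markers higher. The part of these tissues in the values of the matrix genes was not tested.

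Other genes of the same matrix were read through 10 lists of pathway genes. No listed gene passed the test in *Tbx1 LOF*, *β-cat LOF* or rescue. Over all genes, an unadjusted p under 0.05 was reached upward by 2.17% and downward by 1.95% in *Tbx1 LOF*. In *β-cat LOF* 2.83% did so upward and 2.88% downward, and for rescue the shares were 0.371% upward and 0.898% downward. Of 24 measured genes of hyaluronan metabolism and binding, 4 were higher and 1 lower in *Tbx1 LOF* at an unadjusted p under 0.05, 2 and 1 in *β-cat LOF*, and 0 in rescue. The first was *Habp2*, a hyaluronan-binding serine protease made mainly in liver, which averaged 8.32 in mutants and 7.83 in controls (0.49, SE 0.16; adjusted p = 0.725). Of 14 proteases that cleave versican and their inhibitors, 1 was higher and 1 lower in *Tbx1 LOF* before adjustment, 3 were lower in *β-cat LOF* and 1 in rescue. The gelatinase *Mmp9* had 8.49, 8.34, 8.50 and 8.46 on *Tbx1 LOF* arrays, against 8.94, 8.80, 8.79 and 8.75 on controls, and 8.42, 8.37, 8.43 and 8.39 on rescue arrays, against 8.76, 8.90, 8.85 and 8.49 on controls. All mutant arrays were below all controls in both experiments, by −0.37 (SE 0.09; adjusted p = 0.217) and −0.35 (SE 0.09; adjusted p = 0.9999). In *β-cat LOF* *Mmp9* averaged 8.78 in mutants and 8.68 in controls, and its change differed between *Tbx1 LOF* and *β-cat LOF* by −0.48 (SE 0.12; adjusted p = 0.133).

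Among 19 tenascins, thrombospondins and other matricellular genes, *Thbs4*, a thrombospondin of muscle and tendon matrix, had 10.21, 9.77, 10.003 and 9.40 on *Tbx1 LOF* arrays, against 8.98, 9.11, 9.19 and 8.64 on controls. In *β-cat LOF* it had 8.94, 8.63, 8.44 and 8.49, against 9.94, 11.37, 9.55 and 8.58 in controls. The mutants lay above all controls in *Tbx1 LOF* (0.86, SE 0.34; adjusted p = 0.930), and in *β-cat LOF* they overlapped only at control array 4 (−1.24, SE 0.34; adjusted p = 0.593). The changes differed by 2.1 (SE 0.48; adjusted p = 0.0972). *Thbs4* was also among the 3 genes closest to *Hapln1* within groups (r = 0.86), after *Unc45b* and *Itga6*. Among the *β-cat LOF* controls both genes were highest on array 2 and lowest on array 4, where *Hapln1* had 11.92 and 11.33. The correlation without these arrays was not computed. Of 20 regulators of cushion mesenchyme, 4 were higher and 2 lower before adjustment in *Tbx1 LOF*, 2 were lower in *β-cat LOF* and 0 passed that limit in rescue. Of all genes, 2.17% passed it upward and 1.95% downward in *Tbx1 LOF*, while 2.88% passed downward with β-catenin deleted. The first was *Tbx20*, a cardiac T-box factor, which averaged 11.18 in *Tbx1 LOF* and 10.47 in controls (0.71, SE 0.21; adjusted p = 0.517), without overlap. It averaged 10.66 in *β-cat LOF* and 11.11 in controls (−0.45, SE 0.21; adjusted p = 0.854). Control array 2 there had 12.04, against 10.47 to 10.97 on the other controls.

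The remaining 6 lists, for fibrillar collagens, collagen processing, small leucine-rich proteoglycans, basement membrane, elastic fibre and matrix receptors, had at most 3 genes higher and 2 lower before adjustment in a comparison of mutant with control. The first gene of each by p in at least 1 comparison included *Col14a1*, a fibril-associated collagen (−0.22, SE 0.06, in *Tbx1 LOF*; −0.14, SE 0.06, in rescue), *Fmod*, which encodes fibromodulin (−0.32, SE 0.10, in *β-cat LOF*), and *Emilin2*, an elastic fibre glycoprotein (−0.48, SE 0.16, in *β-cat LOF*). *Tll1*, a procollagen C-proteinase, differed by 0.34 (SE 0.14) in *Tbx1 LOF*, and *Itga6*, a laminin receptor chain, by −0.34 (SE 0.14) in *β-cat LOF*. *Lama4*, a laminin chain of vessel basement membrane, differed by −0.36 (SE 0.15) in *β-cat LOF*, and *Itgb3*, a chain of the vitronectin receptor, by 0.21 (SE 0.08) in *Tbx1 LOF*. Array 2 of the *β-cat LOF* controls, which stood apart, held the highest control value of *Lama4*, *Emilin2* and *Itga6*. It had 10.34, 10.41 and 12.08, against 9.36 to 9.49, 9.16 to 9.58 and 11.05 to 11.53 on the other controls. Over the 10 lists, medians lay between −0.05 and 0.06 in *Tbx1 LOF*, between −0.08 and 0.06 in *β-cat LOF* and between −0.05 and 0.03 in rescue.

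The genes whose deviations were most like the mean deviation of the 10 matrix genes were *Ints6* (r = 0.90 over 24 arrays), *Tek* (0.88), *Nxf7* (0.87), *Ddx28* (0.86), *Dpp4* (0.86) and *Smarca1* (0.86). The mean was taken over unscaled log2 deviations. *Postn* and *Lum*, with residual SDs of 0.80 and 0.41, therefore weighed most in it. *Smarca1* and *Nxf7* also ranked 3rd and 4th for *Postn* alone. *Tek*, the angiopoietin receptor of endothelium and endocardium, averaged 10.59 in *Tbx1 LOF* and 10.39 in controls, and 10.07 in *β-cat LOF* and 10.44 in controls. Among single genes, *Vcan* was closest to *Fbn2*, which encodes fibrillin-2 (0.91), and *Col3a1* to *Fat4*, an atypical cadherin (0.94), with *Lama2*, a laminin chain, at 0.89.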

How the data were processed

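RNA of micro-dissected AHF tissue was hybridized to 24 Affymetrix mouse Gene ST arrays. The deposited log2 values were made by the authors with RMA in oligo (background correction, quantile normalization, summary per gene). RMA compresses differences between dim probes. The methods block for batch with ComBat and limma, keep 4 arrays a genotype after excluding poor ones, and give neither the batch of an array nor whether the values are batch-corrected. Versions and the genome build of the annotation were not found in the sources used here.

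Of 35556 probe sets, 21789 had 1 gene symbol, 1621 several and 12146 none. Those with 1 symbol were averaged per gene, giving 19938 genes, of which 19856 were matched by gene ID to RefSeq. Intensities ran from 3.62 to 14.56, and depth has no counterpart on arrays, where the number of arrays limits the precision.

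One limma (3.58.1, R 4.3.3) fit on 6 group means over 24 arrays gave each difference, its SE and moderated p with 18 residual degrees of freedom, adjusted by Benjamini-Hochberg over all genes. The array-number term was fitted over the same arrays. Deviations from group means were correlated in Python 3.11.15 with numpy 2.4.6. The fit was checked on simulated data with independent noise for each gene and array, so the check does not cover differences by array number.

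The 10 genes and all lists were chosen with earlier results of these data known. Named beside the 10 genes are the targeted genes, the first gene of each list by moderated statistic where none passed, and the genes closest to them within groups. Deviations of same-numbered mutant and control arrays correlated by 0.396, 0.157, 0.202 and 0.494 in *Tbx1 LOF*. There mutant arrays 1, 2 and 3 were closer to a control of another number (up to 0.403, 0.407 and 0.431). Only array 4 was closest to its own number (0.494 against 0.459). Same-numbered arrays correlated by 0.194, 0.0889, 0.479 and 0.379 in *β-cat LOF*, where arrays 3 and 4 were closest to their own number. In rescue they correlated by −0.0638, 0.0963, 0.256 and 0.000458, and only array 3 was closest to its own. No source ties a number to a litter or day, and the main fit did not pair arrays in any experiment. Alternatives were the array number as a block or as a term, each experiment alone, a second quantile normalization, median centring, the brightest probe set, a filter on dim genes, trend and robust moderation, array weights, each array left out, and, chosen after seeing the data, only array numbers 1 and 2 or only 3 and 4. The upstream windows came from RefSeq and were searched for exact matches.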

Additional observations from a re-analysis of the deposited data

Results flagged for a closer look

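In 3 of 60 groups of 4 arrays, 1 array of a matrix gene stood apart from the other 3, by Dixon's test at its 95% limit. Chance alone sets apart about 1 group in 20 by this limit. *Hapln1* was 11.56 on array 4 of the *Tbx1 LOF* controls, against 11.72 to 11.74 on the other 3. *Fn1* was 13.22 on array 1 of the rescue mutants, against 13.07 to 13.09 on the other 3. *Tnc* was 11.26 on array 3 of the rescue mutants, against 11.35 to 11.36 on the other 3.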

How the results depend on the processing

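None of the 10 matrix genes passed the test in a comparison of mutant with control, or of 1 change with another, under any alternative run, each of which was limma on other arrays, values or terms. The smallest adjusted p of the 10 over all of these was 0.308 in *Tbx1 LOF*, 0.444 in *β-cat LOF*, 0.732 in rescue, 0.128 for the *Tbx1 LOF* change minus the *β-cat LOF* change and 0.779 for the *Tbx1 LOF* change minus the rescue change. With the array number as a replicate block, estimates stayed as they were, the adjusted p of *Col1a1* in *Tbx1 LOF* was 0.580, and no call changed among the 10 genes, but over all genes 0 were called in *Tbx1 LOF*, where *Tbx1* itself lost its call, and 2 for *Tbx1 LOF* minus *β-cat LOF*. The count over all genes moved more. In *Tbx1 LOF* it was 6 and ran from 0 to 32 without single arrays and from 0 to 10 otherwise, in *β-cat LOF* it was 0 and ran up to 42 and 3, in rescue it was 0 and ran up to 0 and 1, for *Tbx1 LOF* minus *β-cat LOF* it was 10 and ran from 0 to 169 and from 0 to 120, and for *Tbx1 LOF* minus rescue it was 0 and ran up to 1 and 0. By array number, 5 of the 10 were called, 3 after a second quantile normalization or with array weights, and 3 to 6 without single arrays.

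Differences that turned sign ranged in size up to 1.11, for *Postn* in *Tbx1 LOF* minus rescue, and the cause was not tested. With array weights they were 0.0095 for *Vcan* in *Tbx1 LOF*, 0.037 for *Fn1*, 0.039 for *Col1a2* and 0.0062 for *Col3a1* in *β-cat LOF*, −0.028 for *Has2* and 0.017 for *Hapln1* in rescue, and 0.044 for *Col3a1* in *Tbx1 LOF* minus rescue. After a second quantile normalization they were 0.0062 for *Fn1* in *β-cat LOF*, 0.0093 for *Lum* in rescue and −0.0037 for *Has2* by array number, and after median centring 0.00075 for *Lum* in rescue. Within array numbers 1 and 2 they were −0.022 for *Col3a1* and 0.28 for *Lum* in *Tbx1 LOF*, 0.028 for *Fn1* and 0.088 for *Tnc* in *Tbx1 LOF* minus *β-cat LOF*, and −0.049 for *Has2* and 0.57 for *Lum* in *Tbx1 LOF* minus rescue. Within array numbers 3 and 4 they were −0.071 for *Has2*, −0.039 for *Tnc* and −0.44 for *Postn* in *Tbx1 LOF*, and −0.0053 for *Has2* and 0.0071 for *Fn1* in *β-cat LOF*. There they were also −0.13 for *Has2*, −0.028 for *Vcan*, 0.21 for *Postn*, 0.055 for *Col1a1* and 0.29 for *Lum* in rescue, −0.13 for *Lum* in *Tbx1 LOF* minus *β-cat LOF*, and −0.029 for *Fn1* and −0.65 for *Postn* in *Tbx1 LOF* minus rescue.

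Without single arrays, differences that changed sign ran, in *Tbx1 LOF*, from −0.030 to 0.062 for *Has2*, −0.046 to 0.15 for *Tnc*, −0.037 to 0.12 for *Col3a1* and −0.53 to 0.12 for *Lum*, and in *β-cat LOF* from −0.070 to 0.0084 for *Fn1*. In rescue they ran from −0.069 to 0.045 for *Has2*, −0.011 to 0.076 for *Vcan*, −0.057 to 0.028 for *Hapln1*, −0.048 to 0.053 for *Col1a1* and −0.16 to 0.092 for *Lum*. For *Tbx1 LOF* minus *β-cat LOF* they ran from −0.032 to 0.15 for *Vcan*, −0.11 to 0.013 for *Fn1*, −0.18 to 0.019 for *Tnc* and −0.065 to 0.58 for *Lum*. For *Tbx1 LOF* minus rescue they ran from −0.039 to 0.075 for *Has2*, −0.036 to 0.089 for *Fn1*, −0.037 to 0.093 for *Col1a2*, −0.16 to 0.0041 for *Col3a1* and −0.53 to 0.12 for *Lum*. Of the 50 differences of the 10 genes, 19 changed sign without some array, 23 kept their sign but moved over 1.5 times and 8 did neither. The 8 were *Col1a1* in *Tbx1 LOF*, *Has2*, *Tnc* and *Postn* in *β-cat LOF*, *Fn1* in rescue, *Postn* and *Col1a1* in *Tbx1 LOF* minus *β-cat LOF*, and *Col1a1* in *Tbx1 LOF* minus rescue. With 4 arrays a group, the 95% interval ran from −0.41 to 1.67 for *Postn* in *Tbx1 LOF* and from −0.13 to 0.15 for *Has2*.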
